A study of Mus musculus with 44 samples.

Results

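The ADAMTS proteases (a disintegrin and metalloproteinase with thrombospondin motifs) are secreted zinc enzymes that cut proteins of the extracellular matrix. Here 10 of them were followed in mammary fibroblasts, namely Adamts1, Adamts4, Adamts5, Adamts6, Adamts7, Adamts9, Adamts10, Adamts12, Adamts15 and Adamts16. They were taken by gene symbol from a table of 55486 genes, each symbol matched 1 gene, and all 10 passed the filter on low counts that left 16601 genes for testing.

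Fibroblasts had been sorted from the mammary gland of EN1-Cre;mTmG (FVB/n) recipients, with or without a tumor. Host cells of the En1 lineage carry GFP and all other host cells tdTomato. The recipients had been given mammary tissue fragments from control donors, from WB1P donors (WapCre;Brca1 F/F;Trp53 F/F, with loss of BRCA1 and P53 in mammary epithelium) or from WB1P-Myc donors (the same alleles with Col1a1 invCAG-Myc-IRES-Luc, which adds MYC). Cells without EpCAM, CD49f, CD31 and CD45 were sorted by GFP and by surface CD26, the product of Dpp4, into En1+, double-, CD26+ and double+ populations. The 44 libraries came from 13 mice, numbered here as control mice 1 to 3 (normal fibroblasts, NFs), WB1P mice 4 to 8 and WB1P-Myc mice 9 to 13 (cancer-associated fibroblasts, CAFs). WapCre acts in the donor epithelium, so the fibroblasts of the host carried neither the tumor alleles nor the Myc transgene. In tumors of its mTmG recipients, the paper found tdTomato-negative cells that lacked epithelial markers. Whether donor cells of that kind entered the sorts used here was not tested. The fat pads of these recipients were not cleared, 2 of the WB1P-Myc mice (12 and 13) were marked 8x8 while the series describes end-stage tumors, and each control label names a pair of numbers that was counted as 1 mouse and may be a pool. Harvest ages are given only as matched between tumor and control mice.

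Counts of the En1+ and double- libraries of a mouse were summed as its CD26- class, and those of CD26+ and double+ as its CD26+ class. This gave 3 mice a class for NFs, 5 CD26- and 4 CD26+ for WB1P (mouse 4 had an En1+ library only) and 5 a class for WB1P-Myc. The CD26+ sums of mice 6, 10 and 11 held a double+ library only. The CD26- sums of mice 9 and 11 held a double- library only. The En1 make-up of the sums was therefore not the same in all mice. Libraries held 5790599 to 15240328 counts and sums up to 29498005. Dpp4 averaged 376 to 546 CPM (counts scaled to library size) in the 3 CD26+ groups and 4.94 to 8.61 CPM in the CD26- groups. The summed level of 7 fibroblast markers was 21073 to 53089 CPM in every sum. Summed pericyte markers (Rgs5, Cspg4, Notch3, Abcc9, Kcnj8, Higd1b and Mcam) were at 145 to 400 CPM in both NF classes and in CD26+ CAFs, but at 1815 to 5320 CPM in CD26- WB1P CAFs and at 2554 to 10558 CPM in CD26- WB1P-Myc CAFs, so the CD26- CAF class held pericyte transcripts that the other groups held at a far lower level. All 7 had a higher mean in CD26- CAFs than in every other group. Rgs5 averaged 1018 and 2290 CPM in CD26- WB1P and WB1P-Myc CAFs against at most 30.2 CPM elsewhere, and Higd1b stood at 0 to 7 counts in the sums of the other groups. The remaining lists were low, with summed epithelial markers at 0.357 to 174 CPM, immune at 7.20 to 212, endothelial at 7.94 to 80.7, Schwann at 3.69 to 57.4 and muscle at 0.125 to 268 CPM. Proliferation genes (Mki67, Top2a, Ccnb1 and Cdk1) summed to 2.78 to 94.6 CPM in NFs and 101 to 398 CPM in CAFs, so they moved with the tumor comparisons, and their part in those results was not tested.

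ADAMTS enzymes are made as inactive precursors, are activated by furin-type convertases, and are held in check by tissue inhibitors of metalloproteinases, above all TIMP3, and by endocytosis through LRP1. Members 1, 4, 5, 9 and 15 cut the large hyaluronan-binding proteoglycans, versican and aggrecan among them. ADAMTS7 and ADAMTS12 cut cartilage oligomeric matrix protein (COMP), ADAMTS6 and ADAMTS10 act on fibrillin microfibrils, and the substrates of ADAMTS16 are less well defined. In connective tissue the family governs the turnover of the provisional, versican-rich matrix in development, inflammation and tumors.

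On GRCm38, the build of the table, Adamts1 (ENSMUSG00000022893, chr16:85793827-85803113, minus strand) and Adamts5 (ENSMUSG00000022894, chr16:85856173-85901828, minus strand) are neighbours separated by 53059 bases. The other members lie alone, Adamts4 at chr1:171250421-171260637 (plus), Adamts9 at chr6:92772699-92943492 (minus), Adamts15 at chr9:30899155-30922452 (minus), Adamts7 at chr9:90163069-90208071 (plus), Adamts12 at chr15:11064790-11349231 (plus), Adamts6 at chr13:104287835-104496695 (plus), Adamts10 at chr17:33524204-33553782 (plus) and Adamts16 at chr13:70727802-70841811 (minus). Adamts7 overlaps Tbc1d2b on the other strand, which had 166173 counts over all libraries beside 34449 for Adamts7. Adamts9 and Adamts16 overlap genes on the other strand with at most 2689 counts. The libraries were stranded, but whether the counting used strand is not given in the sources used here, and without it reads of such pairs cannot be told apart.

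RefSeq promoters (GRCm38.p6) were matched for 3 members. The 250 bases before the start are printed for Adamts1, the member with the highest mean level per length over the groups, and for Adamts9 and Adamts12, which fell together in CD26+ CAFs as described further on. Capitals mark matches on either strand to the GC box GGGCGG or the TATA box TATAAA. The AP-1 motif TGANTCA was searched as well.
Adamts1, chr16:85803114-85803363, minus strand: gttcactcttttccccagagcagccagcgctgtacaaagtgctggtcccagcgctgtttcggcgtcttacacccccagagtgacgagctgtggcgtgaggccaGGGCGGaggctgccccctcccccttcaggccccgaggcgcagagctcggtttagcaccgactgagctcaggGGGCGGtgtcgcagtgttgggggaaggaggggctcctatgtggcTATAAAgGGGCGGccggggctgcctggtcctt
Adamts9, chr6:92943535-92943784, minus strand: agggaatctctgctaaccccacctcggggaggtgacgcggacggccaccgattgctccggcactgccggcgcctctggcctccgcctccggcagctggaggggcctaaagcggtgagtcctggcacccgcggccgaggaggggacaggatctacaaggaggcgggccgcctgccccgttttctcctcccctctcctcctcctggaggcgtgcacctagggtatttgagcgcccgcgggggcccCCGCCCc
Adamts12, chr15:11064523-11064772, plus strand: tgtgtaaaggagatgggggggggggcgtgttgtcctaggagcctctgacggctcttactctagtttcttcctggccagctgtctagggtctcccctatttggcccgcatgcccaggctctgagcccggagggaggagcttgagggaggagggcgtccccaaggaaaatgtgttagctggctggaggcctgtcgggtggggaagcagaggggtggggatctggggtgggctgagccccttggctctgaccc
Adamts1 held 3 GC boxes and 1 TATA box, Adamts9 held 1 GC box, and Adamts12 held neither. None of the 3 windows held TGANTCA. Among 32851 RefSeq promoter windows of this length, 32.7% held a GC box, 12.4% TATAAA and 6.75% TGANTCA, so these matches are common and describe the letters of the windows only.

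Per length, as CPM divided by the exon length in kilobases (RPKM), Adamts1 and Adamts4 led. Adamts1, an inflammation-inducible hyalectanase, had the highest group mean in 5 of the 6 groups, from 192 to 266 RPKM, and stood at 176 RPKM in CD26- WB1P CAFs, below the 208 RPKM of Adamts4 there. Adamts4, an aggrecanase, had group means of 78.96 to 208 RPKM. Adamts12 lay at 27.7 to 99.9 RPKM and Adamts5, the other main aggrecanase, at 8.35 to 54.5 RPKM. Adamts12 was the higher of the pair in both NF classes and in CD26- CAFs, and Adamts5 in CD26+ CAFs, at 41.7 against 27.7 RPKM in WB1P and 54.5 against 31.2 RPKM in WB1P-Myc. In CD26- WB1P CAFs Adamts5 (8.35 RPKM) lay below Adamts16 (18.7), Adamts7 (16.5), Adamts6 (9.88) and Adamts10 (9.66). Adamts9, Adamts10, Adamts7 and Adamts15 lay at 2.15 to 24.0 RPKM. The plot of level per exon length shows that Adamts6 and Adamts16 were the members whose group means spanned orders of magnitude, 0.104 to 9.88 RPKM for Adamts6 and 0.0203 to 18.7 RPKM for Adamts16. Neighbours in this order were often not separated by their spread over mice. In CD26- NFs the values of Adamts1 overlapped those of Adamts4, and those of Adamts10, Adamts9, Adamts7 and Adamts15 overlapped in turn.

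**Figure D1:**
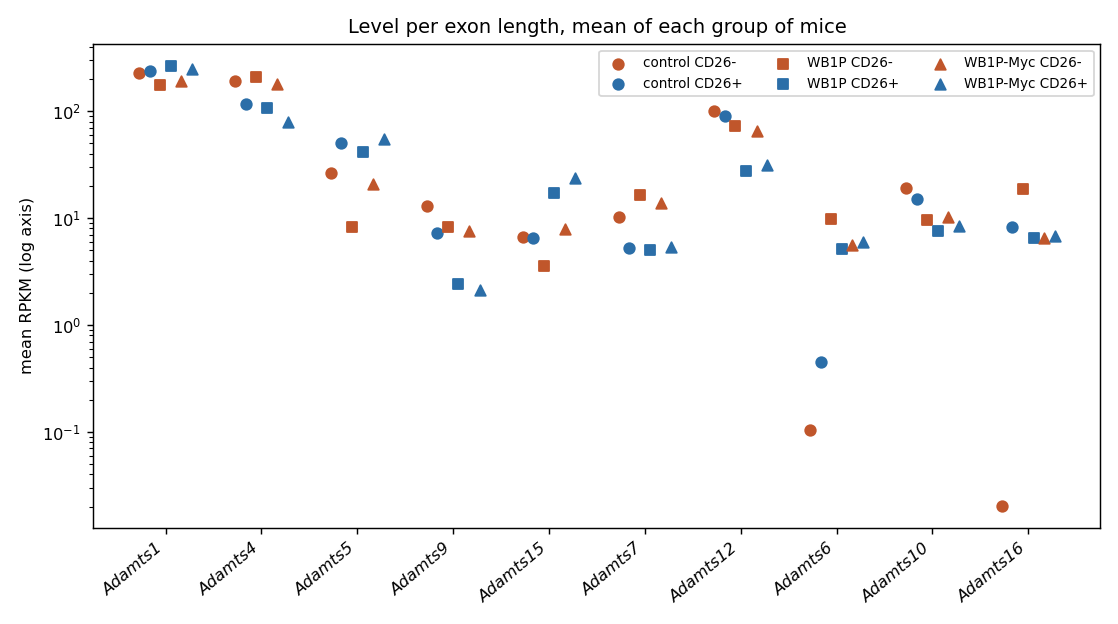
Mean RPKM of each member (log axis) in 6 groups of 3 to 5 mice, CD26- in orange and CD26+ in blue, control as circles, WB1P as squares and WB1P-Myc as triangles. Adamts1 and Adamts4 stay high in every group, while Adamts16 in CD26- NFs stands at 0.0203 RPKM and at 6.48 to 18.7 RPKM in the other 5 groups.

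The first question was whether CD26+ and CD26- fibroblasts of a normal gland differ in these proteases. In NFs Adamts16 and Adamts6 were higher in CD26+ cells and the other 8 members were not called. That is 2 of 10 members, where 4.17% of all 16601 genes were called (edgeR quasi-likelihood test, FDR under 0.05), and the median log2 fold change was -0.03 for the members and -0.02 for all genes.

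Adamts16 was nearly absent from CD26- NFs, with 0.225, 0.118 and 0.0732 CPM in mice 1, 2 and 3, which are 6, 3 and 2 counts. In CD26+ NFs of the same mice it stood at 17.3, 81.9 and 70.3 CPM. The classes did not overlap, and mouse 1 was the lowest of the CD26+ values. Pooled over mice, the CD26+ to CD26- ratio of CPM was 410 (exact 95% interval 229 to 822, counting error only), and the fitted log2 fold change was 8.65 ± 0.95 (SE, FDR 6.44e-06, n = 3 mice a class, edgeR), a value that depends on how the few counts of the lower class are moderated. The single libraries behind the sums showed the same split, with 0.0773 to 0.138 CPM in En1+ and 0.0694 to 0.328 CPM in double- libraries, and 17.2 to 91.8 CPM in CD26+ and double+ libraries.

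Adamts6, which acts on microfibrils, was low in both NF classes. Mice 1, 2 and 3 had 0.337, 1.70 and 0.402 CPM in CD26- NFs and 1.19, 5.87 and 3.42 CPM in CD26+ NFs. Every mouse was higher in CD26+ cells, although the lowest CD26+ value lay below the highest CD26- value. The log2 fold change was 2.16 ± 0.52 (SE, FDR 0.0168, edgeR), and it was not called without mouse 3 (log2 fold change 1.84, FDR 0.238) or with only the groups compared (2.14, FDR 0.293).

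With mouse as a paired factor, 4 members were called in NFs, where 11.5% of all genes were. The COMP-cleaving Adamts7 (log2 fold change -1.01 ± 0.21, FDR 0.00716) and the hyalectanase Adamts9 (-0.92 ± 0.23, FDR 0.0214) were then lower in CD26+ NFs. Both were lower in CD26+ cells of 3 of 3 mice. Adamts7 stood at 69.3, 27.2 and 95.5 CPM in CD26- and 48.8, 9.25 and 41.5 CPM in CD26+ NFs of mice 1, 2 and 3, and mouse 2 was the lowest in both classes.

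**Figure D2:**
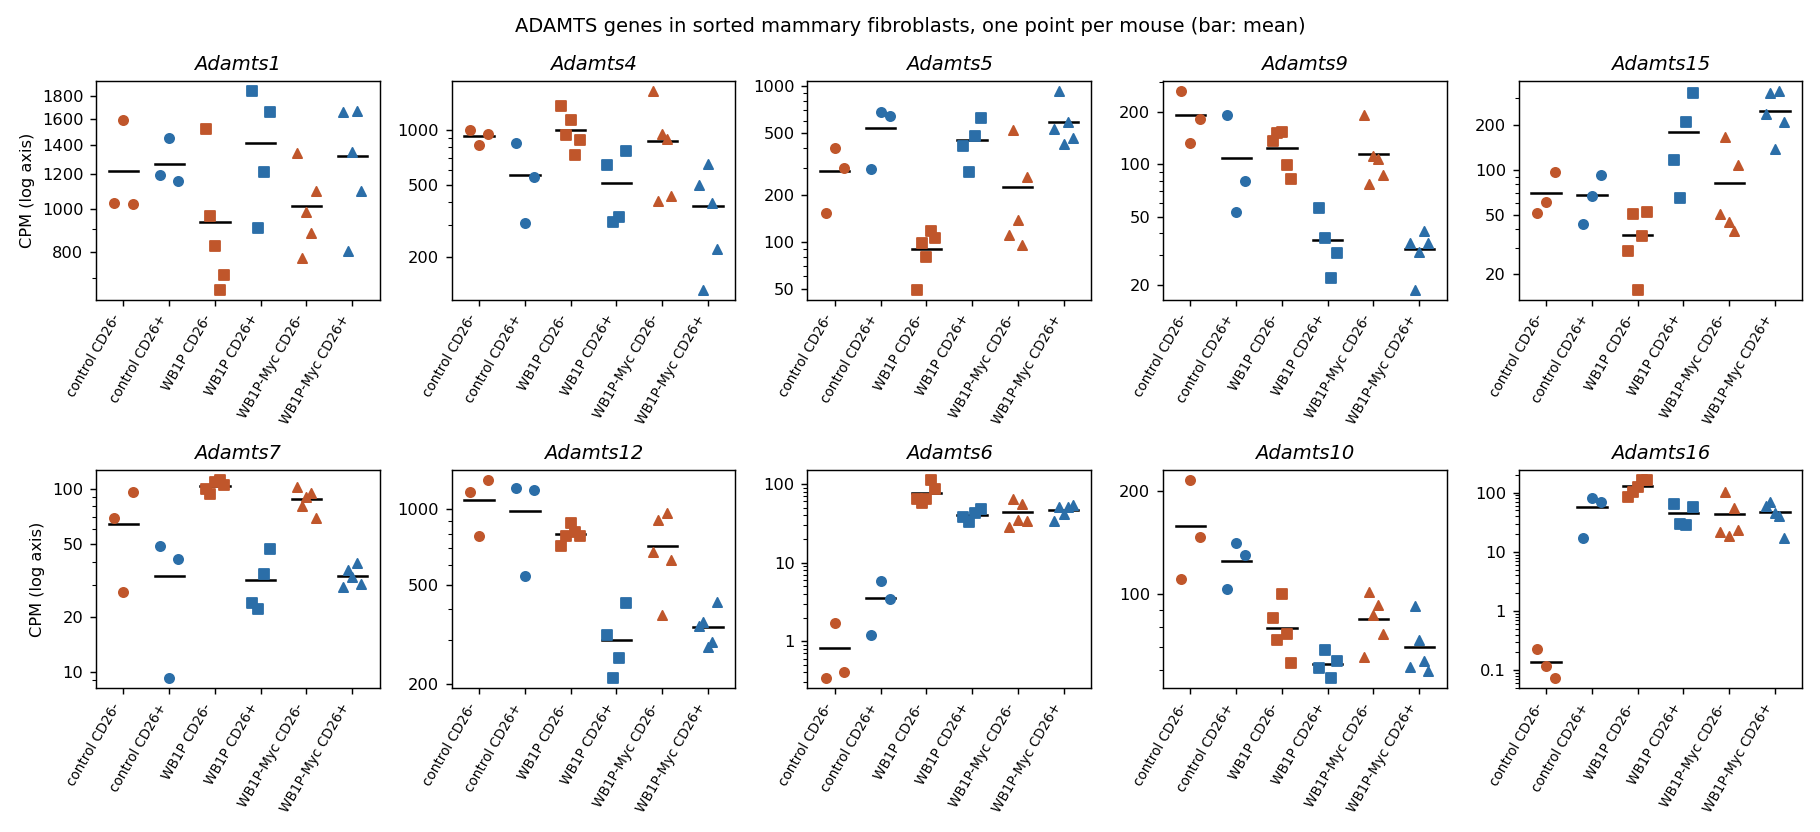
CPM of each of the 10 members (log axis) by group, one point per mouse with the mean as a bar, CD26- in orange and CD26+ in blue. Adamts16 sits under 0.3 CPM in the 3 CD26- NF sums and above 16 CPM in every other sum, and Adamts6 is at most 5.87 CPM in NFs and at least 28.2 CPM in CAFs.

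In CAFs 5 members were called between the CD26 classes. Adamts5 and Adamts15 were higher in CD26+ CAFs, and Adamts9, Adamts7 and Adamts12 were lower, in WB1P and in WB1P-Myc tumors alike. That is 5 of 10 members in WB1P, where 26% of all genes were called, and 5 of 10 in WB1P-Myc, where 20% were (edgeR, FDR under 0.05). The 2 CD26 contrasts rest on different mice.

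Adamts5 in CD26- WB1P CAFs of mice 4 to 8 stood at 49.4, 97.9, 80.3, 118 and 105 CPM. In CD26+ WB1P CAFs of mice 5 to 8 it stood at 415, 280, 481 and 625.3 CPM. The classes did not overlap, and the log2 fold change was 2.44 ± 0.43 (SE, FDR 0.000238). In WB1P-Myc mice 9 to 13, CD26- CAFs had 111, 521, 138, 96.0 and 261 CPM and CD26+ CAFs 527, 931, 427, 592 and 462 CPM, with a log2 fold change of 1.52 ± 0.40 (FDR 0.00914). Here the classes overlapped through mouse 10, which was the highest in both. Every one of the 9 tumor mice with both classes was higher in CD26+ cells. All 3 control mice were as well (0.99 ± 0.52, FDR 0.415 in NFs), so the difference in NFs was not called.

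Adamts15, another versican-cleaving member, followed the same direction in CAFs. WB1P mice 4 to 8 had 28.7, 51.0, 15.8, 36.0 and 52.0 CPM in CD26- CAFs, and mice 5 to 8 had 115, 64.9, 210 and 327 CPM in CD26+ CAFs. All CD26+ values lay above all CD26- values, and the log2 fold change was 2.38 ± 0.47 (FDR 0.000634). WB1P-Myc mice 9 to 13 had 50.7, 166, 44.8, 39.1 and 107 CPM in CD26- and 234, 326, 137, 336 and 209 CPM in CD26+ CAFs (log2 fold change 1.76 ± 0.44, FDR 0.00586), with an overlap set by mouse 10. In NFs the classes were at 51.8, 60.5 and 97.0 against 43.7, 66.4 and 92.2 CPM, a log2 fold change of 0.02 ± 0.55.

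Adamts9, a large hyalectanase that also has a role in secretory transport, was lower in CD26+ CAFs of every tumor mouse. WB1P mice 4 to 8 had 137, 153, 155, 99.3 and 82.3 CPM in CD26- CAFs, and mice 5 to 8 had 56.1, 37.6, 22.0 and 30.8 CPM in CD26+ CAFs. WB1P-Myc mice 9 to 13 had 193, 77.1, 112, 107 and 87.2 CPM in CD26- and 35.0, 18.9, 31.1, 41.4 and 35.1 CPM in CD26+ CAFs. The classes did not overlap in either tumor type. The log2 fold changes were -1.63 ± 0.39 (FDR 0.00388) in WB1P and -1.63 ± 0.36 (FDR 0.00237) in WB1P-Myc.

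The COMP-cleaving pair showed the same direction. Adamts7 stood at 93.8 to 112 CPM (median 105) in CD26- WB1P CAFs and at 23.9, 22.1, 34.2 and 46.9 CPM in CD26+ CAFs of mice 5 to 8. In WB1P-Myc it stood at 69.3 to 102 CPM (median 90.3) against 29.2 to 39.0 CPM (median 32.9). No class overlapped the other in either tumor type, and the log2 fold changes were -1.59 ± 0.35 (FDR 0.00175) and -1.21 ± 0.32 (FDR 0.00875). Adamts12 had 714, 779, 880, 812 and 784 CPM in CD26- CAFs of WB1P mice 4 to 8 and 316, 212, 256 and 424 CPM in CD26+ CAFs of mice 5 to 8 (log2 fold change -1.27 ± 0.29, FDR 0.00227). In WB1P-Myc mice 9 to 13 it had 676, 906, 379, 970 and 628 CPM against 342, 354, 283, 296 and 426 CPM (-0.91 ± 0.26, FDR 0.0158). The WB1P values did not overlap, whereas CD26- mouse 11, at 379 CPM, lay below CD26+ mouse 13.

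Several of these calls in WB1P-Myc were lost when mice were left out, with folds of similar size. Without the mice marked 8x8 the count of members called fell from 5 to 1, Adamts9 (log2 fold change -1.92, FDR 0.0168), where 12.3% of all genes were called. The other 4 kept their direction, at log2 fold changes of 1.42 (FDR 0.0913) for Adamts5, 1.56 (FDR 0.0918) for Adamts15, -1.27 (FDR 0.0712) for Adamts7 and -0.82 (FDR 0.146) for Adamts12. Without mouse 12 alone 2 members were called, and Adamts5 (log2 fold change 1.31, FDR 0.0539), Adamts15 (1.43, FDR 0.0522) and Adamts12 (-0.72, FDR 0.107) were lost. Adamts12 was also lost without mouse 10 (-0.79, FDR 0.0696).

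With mouse as a paired factor the calls grew to 9 of 10 in WB1P, where 35.1% of all genes were called, and to 7 of 10 in WB1P-Myc, where 32.2% were. Adamts1 was then higher in CD26+ CAFs of both tumor types (log2 fold change 0.91 ± 0.20, FDR 0.00379, and 0.52 ± 0.18, FDR 0.0402). Adamts4 was lower in both (-0.81 ± 0.29, FDR 0.0416, and -1.03 ± 0.25, FDR 0.0073). Adamts4 was lower in CD26+ cells of 12 of 12 mice, NFs included, and Adamts1 was higher in 9 of 9 tumor mice and in 2 of 3 control mice. Unpaired, edgeR on the sums of all mice called neither. Adamts1 in WB1P also passed by DESeq2's Wald test (0.71, FDR 0.0491), with single libraries as units (0.90, FDR 0.000523) and without mouse 4 (0.96, FDR 0.0161), and in WB1P-Myc with single libraries as units (0.67, FDR 0.0126). In WB1P the pairing also called Adamts6 (-0.85 ± 0.20, FDR 0.00616) and Adamts16 (-1.57 ± 0.43, FDR 0.0125), both lower in CD26+ CAFs of 4 of 4 mice. Unpaired, Adamts16 stood at -1.34 ± 0.51 (FDR 0.058) and passed without control mouse 1, WB1P mouse 5 or WB1P-Myc mouse 10 or 13 (FDR 0.0346 to 0.0482), by DESeq2's Wald test (FDR 0.03), with only the groups compared (FDR 0.0128) and with single libraries as units (FDR 0.00755). Adamts6 stood at -0.81 ± 0.36 (FDR 0.103) and passed without control mouse 2 (FDR 0.033), with only the groups compared (FDR 0.0147) and with single libraries as units (FDR 0.02).

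**Figure D3:**
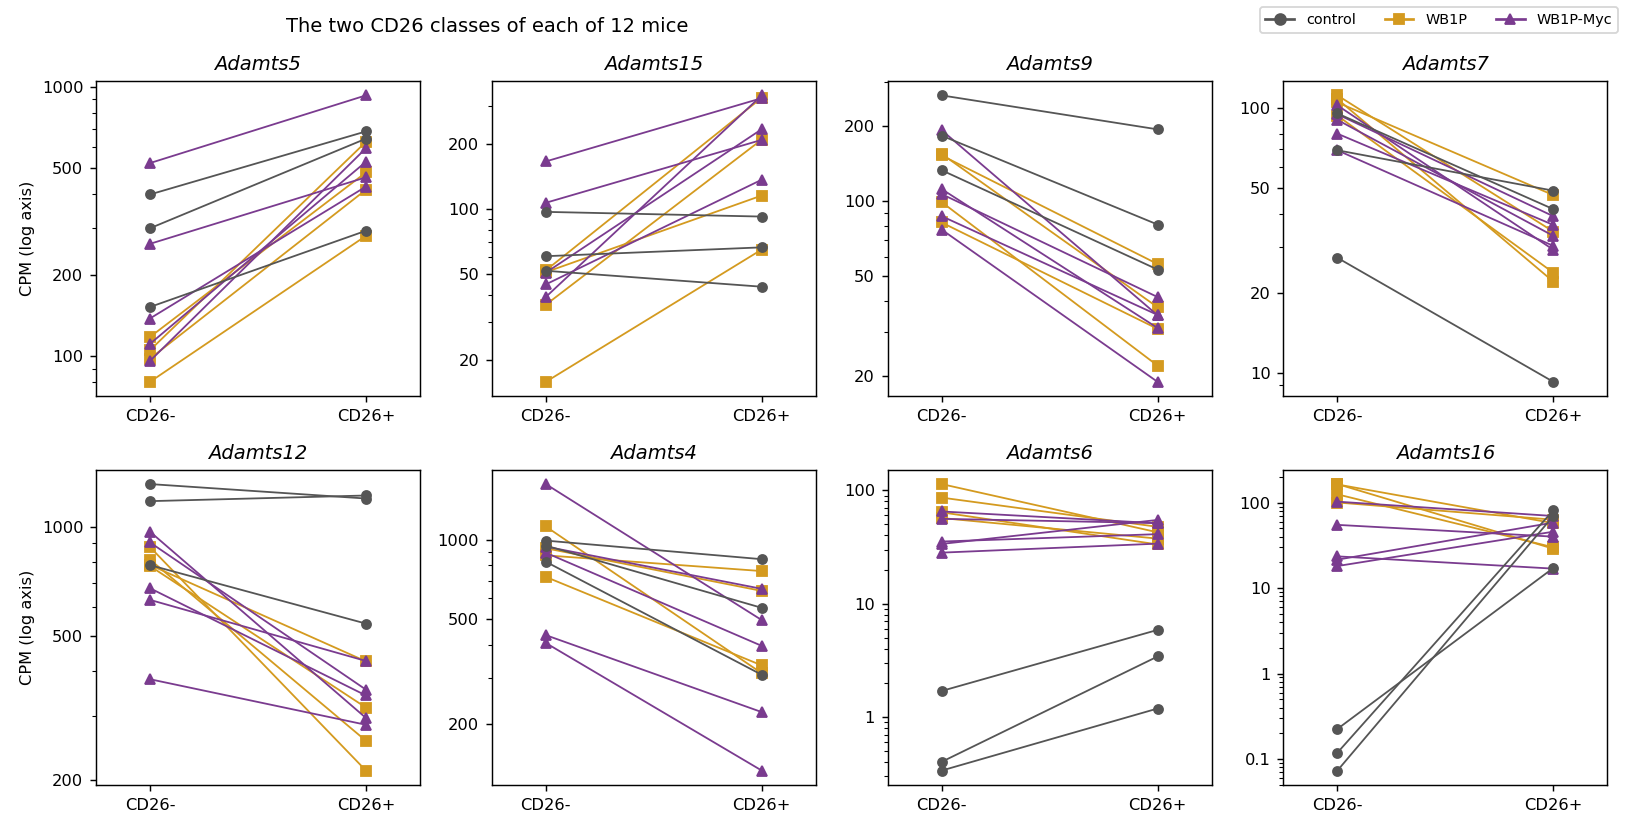
CPM (log axis) of 8 members in the CD26- and CD26+ class of each of the 12 mice that gave both, joined by a line, control in grey, WB1P in gold and WB1P-Myc in purple. Adamts5 rises and Adamts4, Adamts9 and Adamts7 fall from CD26- to CD26+ in 12 of 12 mice, while the Adamts16 lines rise steeply only in the 3 control mice.

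The CD26- CAF values hold the pericyte transcripts described above, and their part in these differences was not tested. Among CD26- WB1P CAFs, mouse 4 had the highest pericyte sum (5320 CPM) together with the highest Adamts4 (1356 CPM), the highest Adamts1 (1518 CPM) and the lowest Adamts5 (49.4 CPM). Among CD26- WB1P-Myc CAFs, mouse 9 had the highest pericyte sum (10558 CPM) with the highest Adamts4 (1631 CPM), Adamts9 (193 CPM) and Adamts1 (1341 CPM). The members did not all rank alike in these mice. Adamts9 of mouse 4 (137 CPM) lay within the 82.3 to 155 CPM of its group, and Adamts5 of mouse 9 (111 CPM) above that of mouse 12 (96.0 CPM). Adamts16 and Adamts12 were lowest in mouse 4, and Adamts6 and Adamts10 in mouse 9. The CD26- sums of mice 4 and 9 held 1 library each, En1+ and double-. In CD26- NFs, with pericyte sums of 210 to 400 CPM, Adamts9 stood at 266, 133 and 183 CPM. A lower level in a bulk class may be fewer expressing cells or less RNA per cell, which these data cannot tell apart.

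**Figure D4:**
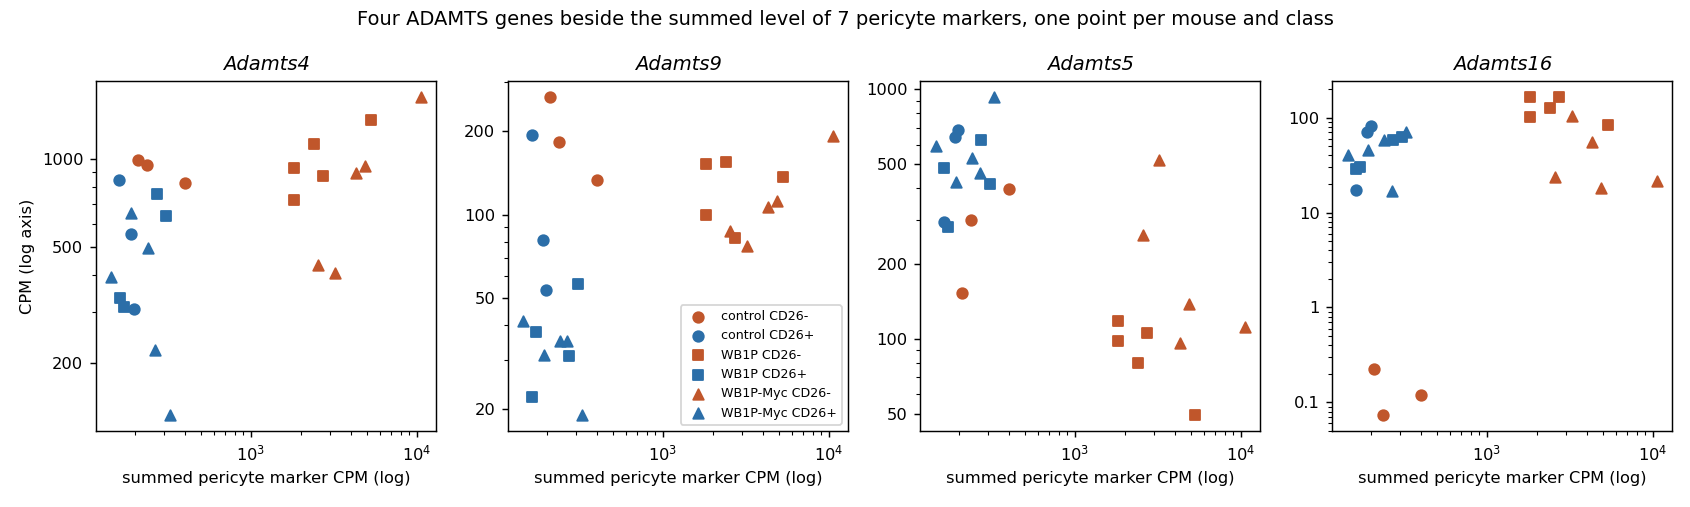
CPM of 4 members against the summed CPM of 7 pericyte markers (both log axes), one point per mouse and CD26 class, CD26- in orange and CD26+ in blue. CD26- CAFs lie at pericyte sums of 1815 to 10558 CPM, all other sums at 400 CPM or less, and CD26- NFs reach Adamts9 values of 266 CPM at the low end of the marker axis.

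The second question was how CAFs differ from NFs of the same CD26 class. In the CD26- class 4 members changed in WB1P, where 35.4% of all genes were called, and 3 in WB1P-Myc, where 36.6% were. Adamts16 and Adamts6 rose in both, Adamts10 fell in both, and Adamts5 fell in WB1P. The tumor types share their 3 control mice, so these are not independent.

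Adamts16 in CD26- WB1P CAFs of mice 4 to 8 stood at 83.2, 101, 126, 166 and 164 CPM, against at most 0.225 CPM in CD26- NFs. Pooled over mice the ratio was 953 (exact 95% interval 532 to 1910, counting error only), with a fitted log2 fold change of 9.91 ± 0.97 (FDR 1.69e-07). In WB1P-Myc mice 9 to 13 it stood at 21.6, 103, 18.2, 55.1 and 23.6 CPM, a pooled ratio of 390 (218 to 782) and a log2 fold change of 8.29 ± 0.93 (FDR 1.38e-06). All 10 CD26- CAF values lay above all 3 NF values. The pericyte sums were higher in the same CAF groups, and their part in this difference was not tested.

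In CD26+ cells, in contrast, Adamts16 did not separate tumors from controls. CD26+ WB1P CAFs of mice 5 to 8 had 63.3, 30.0, 28.9 and 57.7 CPM and WB1P-Myc CAFs had 58.7, 70.0, 45.9, 40.1 and 16.9 CPM, within or near the 17.3 to 81.9 CPM of CD26+ NFs (log2 fold changes -0.08 ± 0.57, FDR 0.93, and -0.17 ± 0.54, FDR 0.828). The CD26 difference itself therefore differed between conditions. The interaction was -9.99 ± 1.08 on the log2 scale for WB1P against control (FDR 6.77e-05) and -8.46 ± 1.04 for WB1P-Myc against control (FDR 0.00017).

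Adamts6 rose in both classes and both tumor types. CD26- CAFs had 64.3, 57.0, 64.0, 114 and 86.3 CPM in WB1P and 28.2, 65.1, 35.4, 56.1 and 33.7 CPM in WB1P-Myc, against 0.337 to 1.70 CPM in NFs. CD26+ CAFs had 37.5, 33.3, 42.6 and 47.7 CPM in WB1P and 33.9, 51.3, 41.1, 51.5 and 54.8 CPM in WB1P-Myc, against 1.19 to 5.87 CPM in NFs. No CAF value overlapped an NF value. The log2 fold changes were 6.70 ± 0.56 (FDR 2.49e-08) and 5.77 ± 0.54 (FDR 1.84e-07) in CD26- cells, and 3.73 ± 0.48 (FDR 1.08e-05) and 3.84 ± 0.47 (FDR 7.78e-06) in CD26+ cells. By pooled counts, 63 counts in CD26- NFs stood against 8792 in WB1P and 4826 in WB1P-Myc, ratios of CPM of 97.8 (exact 95% interval 76.4 to 127) and 60.8 (47.5 to 79.3).

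The CD26 difference of Adamts6 was 2.16 in NFs and -0.81 in WB1P CAFs on the log2 scale, an interaction of -2.97 ± 0.63 (FDR 0.015). Without control mouse 3 (-2.66, FDR 0.139) or WB1P mouse 7 (-2.78, FDR 0.0506) it was not called. Thus 2 of 10 members had a called interaction in WB1P, where 1.86% of all genes did, and 1 of 10, Adamts16, in WB1P-Myc, where 1.16% did. With mouse as a paired factor 3 of 10 were called in each, where 5.13% and 3.15% of all genes were. Adamts15 was added in both (2.21 ± 0.49, FDR 0.0213, and 1.93 ± 0.47, FDR 0.0414) and Adamts6 in WB1P-Myc (-1.92 ± 0.38, FDR 0.0157).

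Adamts10, the other microfibril member, was lower in CAFs of every group. NFs had 111, 217 and 147 CPM in the CD26- class and 104, 142 and 130 CPM in the CD26+ class. CAFs had 62.9 to 100 CPM (WB1P) and 65.5 to 102 CPM (WB1P-Myc) in the CD26- class and 56.8 to 68.6 CPM and 59.8 to 92.4 CPM in the CD26+ class. None of the 4 comparisons overlapped. The log2 fold changes ran from -0.90 ± 0.19 (FDR 0.00102, CD26- WB1P-Myc) to -0.75 ± 0.19 (FDR 0.00507, CD26+ WB1P-Myc), and the 4 calls held under each of the 19 alternatives run. The microfibril members thus moved in opposite directions.

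Adamts5 was lower in CD26- WB1P CAFs (49.4 to 118 CPM) than in CD26- NFs (152, 399 and 299 CPM), with a log2 fold change of -1.51 ± 0.45 (FDR 0.0119). The groups did not overlap, but without control mouse 2 the call was lost (-1.16, FDR 0.0988). In CD26- WB1P-Myc CAFs the log2 fold change was -0.31 ± 0.45 (FDR 0.61). The direct difference between the tumor types was 1.20 ± 0.40 (FDR 0.171), so a difference between them was not shown.

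In the CD26+ class 5 of 10 members changed in each tumor type, where 33.5% of all genes were called for WB1P and 34.7% for WB1P-Myc. Adamts6 and Adamts15 rose, and Adamts9, Adamts12 and Adamts10 fell. Median log2 fold changes were -0.01 and -0.04 over the members and 0.00 and -0.01 over all genes.

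Adamts15 stood at 43.7, 66.4 and 92.2 CPM in CD26+ NFs, against 64.9 to 327 CPM in WB1P and 137 to 336 CPM in WB1P-Myc. The WB1P values overlapped those of NFs (log2 fold change 1.59 ± 0.54, FDR 0.0281), and this call was lost without control mouse 1 (1.38), control mouse 2 (1.57), WB1P mouse 7 (1.54) or WB1P mouse 8 (1.12), at FDR 0.0577 to 0.118, and with only the groups compared (1.60, FDR 0.0522). The WB1P-Myc values lay above all NF values (1.98 ± 0.54, FDR 0.00756). In CD26- cells the changes were -0.78 ± 0.49 (FDR 0.223) and 0.24 ± 0.50 (FDR 0.732). Unpaired, the interactions of Adamts15 were not called, at 2.37 ± 0.72 (FDR 0.111) in WB1P and 1.74 ± 0.71 (FDR 0.368) in WB1P-Myc.

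Adamts12 was 1221, 540 and 1197 CPM in CD26+ NFs, above the 212 to 424 CPM of WB1P and the 283 to 426 CPM of WB1P-Myc. Control mouse 2 was the lowest NF and still exceeded every CAF. The log2 fold changes were -1.53 ± 0.32 (FDR 0.00114) and -1.46 ± 0.30 (FDR 0.000997). In CD26- cells Adamts12 was not called (-0.33 ± 0.30, FDR 0.417, and -0.61 ± 0.30, FDR 0.111). The interactions were -1.20 ± 0.44 (FDR 0.194) in WB1P and -0.85 ± 0.43 (FDR 0.557) in WB1P-Myc. A difference between the classes in this fall was therefore not shown. With mouse as a paired factor they were not called either (FDR 0.0773 and 0.346), and with single libraries as units only that of WB1P passed (-1.14, FDR 0.0142).

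Adamts9 was 194, 53.3 and 80.7 CPM in CD26+ NFs of mice 1 to 3. Mouse 1 was far above the other NFs. The log2 fold change was -1.39 ± 0.43 (FDR 0.0163) in WB1P and -1.68 ± 0.40 (FDR 0.00315) in WB1P-Myc, and without that mouse -0.62 (FDR 0.246) and -0.91 (FDR 0.075). The WB1P call was also lost without WB1P mouse 7 (-1.18, FDR 0.0579) and with only the groups compared (-1.37, FDR 0.0838). WB1P mouse 5, at 56.1 CPM, lay above control mouse 2, whereas no WB1P-Myc value reached an NF value. In CD26- cells the Adamts9 changes were -0.50 ± 0.40 (FDR 0.352) in WB1P and -0.79 ± 0.40 (FDR 0.124) in WB1P-Myc. The interactions were -0.89 ± 0.59 (FDR 0.564) and -0.89 ± 0.58 (FDR 0.721), so a difference between the classes was not shown.

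Adamts7 was not called in any of the 4 tumor comparisons. In CD26- WB1P CAFs it stood at a log2 fold change of 0.83 ± 0.37 (FDR 0.0883), which passed without control mouse 3 (1.21, FDR 0.0446) and with single libraries as units (0.85, FDR 0.0143).

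Adamts1 and Adamts4, the most abundant members per length, were called in none of the 4 tumor comparisons. The log2 fold changes ran from -0.28 to 0.36 for Adamts1 and from -0.48 to 0.25 for Adamts4, with SEs of 0.31 to 0.50, so changes of a similar size could not have been resolved. Adamts1 was 1034, 1591 and 1029 CPM in CD26- NFs and 1193, 1447 and 1161 CPM in CD26+ NFs. Both classes were highest in control mouse 2, which also had the highest sum of dissociation-response transcripts (Fos, Jun, Egr1, heat shock genes and others), 20395 and 14987 CPM. Over all sums that list ran from 3771 to 20395 CPM, and its part in the Adamts1 level was not tested.

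**Figure D5:**
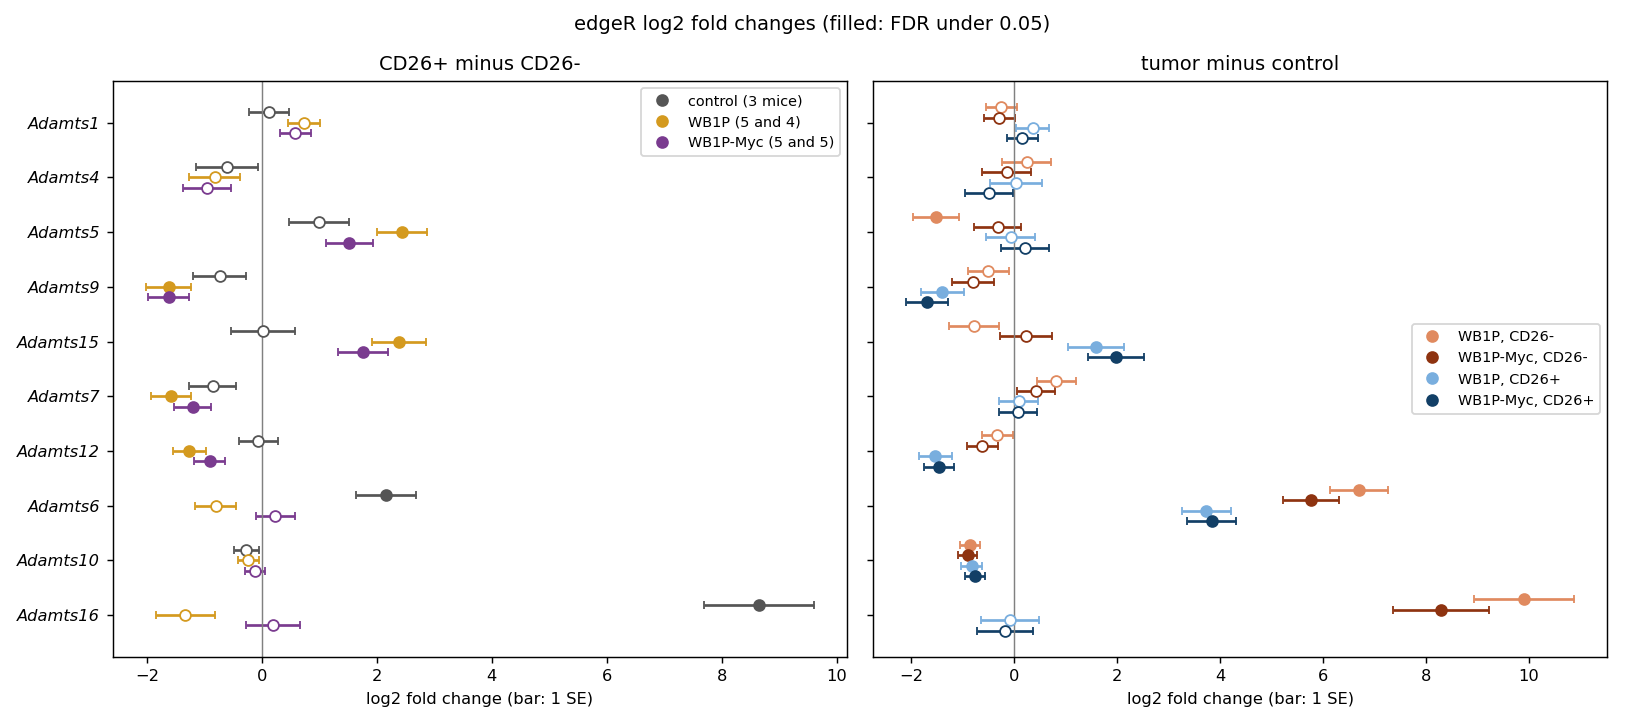
Log2 fold changes of the 10 members from edgeR with 1 SE as the bar, CD26+ minus CD26- on the left and tumor minus control on the right, filled where FDR was under 0.05. Adamts5 and Adamts15 lie above 0 and Adamts9, Adamts7 and Adamts12 below 0 for the CD26 contrast in CAFs, and Adamts6 reaches 3.73 to 6.70 in the tumor contrasts.

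The study's own limits, which add an absolute log2 fold change over 2 to the FDR, left fewer members. Adamts16 and Adamts6 remained for the CD26 contrast in NFs (2 of 10, where 2.18% of all genes passed) and Adamts15 and Adamts5 in WB1P (2 of 10, 7.62%), and none remained in WB1P-Myc (0 of 10, 6.56%). Between tumors and controls, Adamts16 and Adamts6 passed in CD26- cells (2 of 10 in WB1P, 11.5%, and in WB1P-Myc, 10.6%) and Adamts6 in CD26+ cells (1 of 10 in each, 7.85% and 7.42%). The interactions kept Adamts16 and Adamts6 in WB1P (2 of 10, 1.1%) and Adamts16 in WB1P-Myc (1 of 10, 0.885%).

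The third question was whether MYC in the tumor cells changes the proteases of the CAFs. None of the 10 members was called between WB1P-Myc and WB1P tumors by edgeR, in either class, where 0.512% of all genes were called for CD26- (0.126% with the added limit on fold change) and 0% for CD26+ CAFs. At an unadjusted p under 0.05 there were 4 members in CD26- and 0 in CD26+ CAFs, and DESeq2's Wald test called 1 in CD26- CAFs, Adamts16. The largest log2 differences in CD26- CAFs were -1.62 ± 0.48 for Adamts16 (FDR 0.123), 1.20 ± 0.40 for Adamts5, 1.02 ± 0.43 for Adamts15 (FDR 0.28) and -0.93 ± 0.34 for Adamts6 (FDR 0.207). Mouse 10 had the highest Adamts5, Adamts15, Adamts16 and Adamts6 and the lowest Adamts4, Adamts9 and Adamts1 of the CD26- WB1P-Myc CAFs. Without it the Adamts16 difference was -2.21 (FDR 0.0426), that of Adamts5 0.59 (FDR 0.431) and that of Adamts15 0.56 (FDR 0.556). The CD26- sum of WB1P mouse 4 held an En1+ library only, and those of WB1P-Myc mice 9 and 11 a double- library only. The En1 make-up of the sums therefore differed between the tumor types. With single libraries as units 3 members passed, Adamts16 (-1.39, FDR 0.0232), Adamts5 (1.33, FDR 0.00764) and Adamts15 (1.17, FDR 0.0328). The CD26 difference itself was not called as different between the tumor types for any member (edgeR, 0 of 10, where 0% of all genes were called, with 2 members at an unadjusted p under 0.05).

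No member was called by En1 lineage. In both contrasts, En1+ against double- and double+ against CD26+ (means of the 3 conditions over single libraries), 0 of 10 members were called by edgeR, where 0.00642% and 0.0128% of 15584 genes were. No member passed at an unadjusted p under 0.05 either, and neither DESeq2 nor the paired fit called one (2.91% and 0.18% of all genes called in the paired fit). The smallest paired FDR was that of Adamts9 in En1+ against double- (log2 fold change -0.16, FDR 0.0598). For Adamts16 the SE of En1+ against double- was 0.81 (0.44 paired). That mean over conditions includes control libraries of 1 to 4 counts, so a difference of that size could not have been resolved. Within the 19 pairs of libraries of a mouse and CD26 class, the En1-lineage library was the higher in 4 of 19 for Adamts9, 5 of 19 for Adamts4 and 13 of 19 for Adamts6, with median absolute log2 ratios of 0.10 to 0.37 over the members.

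Genes of the same pathway were followed from 4 lists. Of 9 further ADAMTS genes 8 were tested. In CD26- WB1P CAFs the collagen propeptidase Adamts2 rose (log2 fold change 1.62 ± 0.27, FDR 7.48e-05), while Adamts18 (-4.25 ± 0.61, FDR 1.66e-05) and Adamts19 (-3.95 ± 0.62, FDR 4.62e-05) fell, and the list counted 2 higher and 2 lower of 8, where 35.4% of all genes were called. Adamts18 fell in all 4 tumor comparisons, with mean CPM of 10.7 and 25.7 in CD26- and CD26+ NFs and 0.487 to 1.59 in the 4 CAF groups. Between CD26 classes of WB1P CAFs, Adamts19 was higher (3.55 ± 0.60) and Adamts17 lower (-2.58 ± 0.63) in CD26+ cells, and both were called in WB1P-Myc in the same direction.

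Of 7 ADAMTS-like genes, which lack the protease domain, 4 were higher and 0 lower in CD26+ CAFs of each tumor type, where 26% and 20% of all genes were called (medians of 1.21 and 1.20 on the log2 scale, against 0.01 and -0.01 over all genes), and 1, Adamtsl4, was higher in CD26+ NFs, where 4.17% of all genes were called. Adamtsl4, a microfibril-associated protein, showed log2 fold changes of 3.26 ± 0.37 in WB1P, 2.34 ± 0.35 in WB1P-Myc and 3.00 ± 0.46 in NFs. Papilin, Papln, showed 4.16 ± 0.63 in WB1P and 3.50 ± 0.61 in WB1P-Myc CAFs.

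Of 10 substrate genes 9 were tested. In CD26+ CAFs 2 were higher and 1 lower in WB1P (26% of all genes called), and 4 higher and 1 lower in WB1P-Myc (20%). In CD26+ NFs 1 was higher and 0 lower (4.17%). The nidogen genes Nid1 and Nid2 were called between the CD26 classes in both tumor types, under 20 of 20 alternatives each. Versican, Vcan, shared by the hyalectanases, was abundant in all groups, with means of 828.8 to 1577 CPM. It was higher in CD26+ WB1P-Myc CAFs (log2 fold change 1.04 ± 0.35, FDR 0.0406) and stood at 0.80 ± 0.37 in WB1P (FDR 0.117), and no tumor comparison called it. The first of these held under 11 of 20 alternatives. Fibrillin-1, Fbn1, was higher in CD26+ cells of NFs (1.49 ± 0.29, FDR 0.00359), WB1P (1.08 ± 0.24) and WB1P-Myc (1.28 ± 0.23), and Comp rose in CD26+ WB1P CAFs from a mean of 0.754 CPM to 16.2 CPM (log2 fold change 4.60 ± 1.28, FDR 0.00896). Comp was called in the other tumor comparisons as well, in CD26- WB1P and in both classes of WB1P-Myc. Those calls held under 15 or 16 of 19 alternatives.

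Of 10 genes that control ADAMTS activity, 3 were higher and 0 lower in CD26+ CAFs of each tumor type (26% and 20% of all genes called) and 2 were higher in CD26+ NFs (4.17%). The CAF counts lie near the background. The convertase Pcsk6 led, at means of 318, 244 and 188 CPM in CD26+ cells of control, WB1P and WB1P-Myc against 17.2, 17.3 and 17.0 CPM in CD26- cells. Furin, the main activating convertase, rose in CD26- WB1P CAFs from a mean of 144 to 292 CPM (log2 fold change 1.15 ± 0.22, FDR 0.000357). Timp1 rose in all 4 tumor comparisons, by 2.00 to 2.55 on the log2 scale. Timp3, the principal inhibitor of these enzymes, was not called in any comparison, at group means of 553 to 1207 CPM and log2 fold changes of -0.91 to 1.05 in the CD26 and tumor comparisons.

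By the profile of mean log2 CPM over the 6 groups, Adamts16, Adamts6 and Adamts15 varied most among the members, over ranges of 7.61, 5.99 and 2.79. Among 10443 genes with a mean of at least 5 CPM, the genes nearest to Adamts6 after centring were Wt1, P4ha3 and Ccn2, with root mean square differences of 0.39, 0.49 and 0.49 on the log2 scale. Wt1 shared the low level in NFs (0.603 and 0.856 CPM) and 23.6 to 36.7 CPM in CAFs. Nearest to Adamts15 were Adm, Fgf7 and Tslp at 0.28, 0.32 and 0.32. For Adamts16 the nearest were Mgll, Ecscr and Pgf, farther off at 1.10, 1.10 and 1.13. Likeness over 6 group means is a description and names no shared control.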

How the data were processed

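RNA of 44 libraries from 13 mice was sequenced with a stranded poly(A) protocol. The authors aligned the reads, with HISAT2 2.2.1 and GRCm38 named in the submitters' processing notes, and deposited 1 table of raw gene counts. Whether the counting used strand is not given in the sources used here. Not every gene that overlaps a member is reported here. The 1 line without a gene held 0 counts, 0 columns belonged to no listed sample, and none of the 63 pairs of libraries of a group were copies of each other.

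Counts were summed per mouse and CD26 class into 25 sums (19 of 2 libraries, 6 of 1), and 16601 genes passed filterByExpr. edgeR 4.0.16 (R 4.3.3) was used with TMM factors and its quasi-likelihood test over all 6 groups, and En1 contrasts were fitted on single libraries with 12 groups (15584 genes). FDR is Benjamini-Hochberg over all tested genes, and a call is FDR under 0.05. The SE is the log2 fold change divided by the root of F. CPM is count over column total without TMM, and RPKM divides it by GENCODE M21 exon length. Both CD26 classes come from the same animal, and their deviations from the group means correlated in all 12 mice (r 0.264 to 0.722, median 0.489), so values with mouse as a paired factor stand beside results they change. The mice of a group are separate animals except where a control label may be a pool.

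Members and lists were chosen with earlier results of these data known. All 10 members are named, with up to 3 genes of smallest FDR per pathway list and comparison, and Vcan and Timp3 always. Alternatives were DESeq2 1.42.0 (test, and size factors), no filter, mouse as a paired factor, only the groups compared, single libraries, no 8x8 mice, and each mouse left out. Scripts were tested on simulated data.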

Additional observations from a re-analysis of the deposited data

Results flagged for a closer look

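The CD26 difference of 2 members differed between conditions by an interaction test in edgeR. For Adamts16 the CD26+ minus CD26- difference was lower in WB1P than in control by -9.99 on the log2 scale (FDR 6.77e-05) and lower in WB1P-Myc than in control by -8.46 (FDR 0.00017). It was 8.65 in control, -1.34 in WB1P and 0.19 in WB1P-Myc. For Adamts6 the WB1P minus control value was -2.97 (FDR 0.015), from 2.16 in control and -0.81 in WB1P. Of 40 sets of 4 or 5 mice (10 members in the 4 CAF groups), 0 held a mouse set apart by Dixon's test, where chance would give about 2.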

How the results depend on the processing

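The 50 results of single members that were called in the main fit or under any alternative had 978 values under alternatives. Of these values, 918 kept their direction and side of the threshold, 22 fell below it, 38 passed it and 0 turned direction. Results called in no fit are left out of these counts, and some of them did turn direction. Without the 8x8 mice, Adamts16 for WB1P-Myc minus control in CD26+ cells went from -0.17 to 0.15 on the log2 scale. Counts of members called moved by over 1.5 times as follows, and the causes were not tested. With the replicate block (mouse as a paired factor) the CD26 contrast called 4 in control and 9 in WB1P, and the interaction of WB1P-Myc with control called 3. The block moved no other count by over 1.5 times. Between conditions no paired analysis was possible because each mouse was in 1 condition. With only the groups compared, 1 was called for the CD26 contrast in control and 3 for WB1P minus control in CD26+. With single libraries as units, 8 were called for CD26 in WB1P, 3 for WB1P-Myc minus WB1P in CD26- CAFs, and 5 and 2 for the interactions of WB1P and WB1P-Myc with control. DESeq2's Wald test called 1 for WB1P-Myc minus WB1P in CD26- CAFs, and without the 8x8 mice 1 was called for CD26 in WB1P-Myc.

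Leaving out each mouse gave 1 to 2 members for CD26 in control (1 without control mouse 3), 5 to 6 in WB1P and 2 to 5 in WB1P-Myc (2 without mouse 12, 4 without mouse 10). For WB1P minus control it gave 3 to 5 in CD26+ (3 without control mouse 1 or WB1P mouse 7, 4 without control mouse 2 or WB1P mouse 8). In CD26- it gave 3 to 5 (3 without control mouse 2, 5 without control mouse 3). For WB1P-Myc minus control it gave 4 to 5 in CD26+ (4 without control mouse 1) and 3 throughout in CD26-. It gave 0 to 1 for WB1P-Myc minus WB1P in CD26- (1 without mouse 10) and 1 to 2 for the interaction of WB1P with control (1 without control mouse 3 or WB1P mouse 7). Counts were lowest for Adamts16 and Adamts6 in CD26- NFs, at 11 and 63 over 3 mice, and fold changes against them depend on those few counts. For the En1 contrasts, only the groups compared and single libraries as units were not run.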

Other observations

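WB1P-Myc mouse 10 held the highest CD26- values of Adamts5 (521 CPM), Adamts15 (166), Adamts16 (103), Adamts6 (65.1) and Adamts10 (102) among the 5 mice. In CD26+ CAFs it was the highest for Adamts5 (931), Adamts16 (70.0) and Adamts10 (92.4), and the lowest for Adamts4 (133), Adamts9 (18.9) and Adamts1 (803).

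Within WB1P, the En1+ library held more Adamts16 than the double- library of the same mouse in 4 of 4 mice, at 120 against 82.6, 149 against 103, 203 against 126 and 189 against 137 CPM. The same order held in the WB1P-Myc mice with both libraries (mice 10, 12 and 13). Over all 19 pairs of a mouse and CD26 class, controls and CD26+ cells included, the En1-lineage library was the higher in 11. The tumor pairs were picked after the values were seen and carry no test.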
